A study of Mus musculus with 2 samples.

Results

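The Mir183-Mir96-Mir182 cluster is a group of 3 microRNA genes, Mir183, Mir96 and Mir182, that lie close together on mouse chromosome 6. Its members were taken by gene identifier and symbol from both count tables, and 3 of 3 were present among the 1973 miRNA loci with a count. The tables come from microRNA sequencing of total RNA, with a stated size range under 30 nt, from embryonic midbrain of the mouse strain B6NCrl at day 14.5. There was 1 group of 2 biological replicates and no second condition, genotype or age. The labels describe each replicate as 1 midbrain, collected on a different day, but also give the sex as pooled and the same donor identifier and pup number for both. If the replicates are not separate animals, the SDs given here measure technical spread only.

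MicroRNAs are short RNAs cut from hairpin precursors. They guide Argonaute proteins to messenger RNAs mainly through the seed, bases 2 to 8 of the mature RNA. The Mir183, Mir96 and Mir182 genes are transcribed as a single primary transcript and are known for high expression in sensory organs, such as photoreceptors of the retina, hair cells of the inner ear and sensory neurons. The midbrain is best known for the colliculi, which process visual and auditory input, and for dopamine neurons.

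The mature RNAs of the 5′ arms are shown first, because their seeds are nearly but not fully the same. They are from RefSeq (GRCm38.p6, minus strand), 5′ to 3′, with the seed in capitals.
miR-183-5p: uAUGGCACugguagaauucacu
miR-96-5p: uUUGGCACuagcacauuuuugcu
miR-182-5p: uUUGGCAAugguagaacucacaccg
miR-1271-5p: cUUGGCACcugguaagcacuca

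No 2 members had the same seed. Counted from the 5′ end, the seeds of miR-183-5p and miR-96-5p differed by A2U, those of miR-182-5p and miR-96-5p by A8C, and those of miR-182-5p and miR-183-5p by both U2A and A8C. Outside the seed the likeness ran the other way. The arms miR-182-5p and miR-183-5p were the same at 12 of 14 positions after the seed, against 6 of 14 for miR-183-5p and miR-96-5p and 5 of 15 for miR-182-5p and miR-96-5p. Among 1738 mature mouse RNAs in the RefSeq table, only miR-1271-5p, from a hairpin on chromosome 13, shared the seed of miR-96-5p, and no other RNA had the seed of miR-183-5p or of miR-182-5p. The miR-1271 locus (Gm24195) had 0 sense reads in both libraries. The 3 counts taken as the limit of a count of 0 allow up to 0.411 CPM (counts scaled to the sum of sense reads at miRNA loci) in replicate 1 and 0.756 CPM in replicate 2.

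The hairpins are shown because a count covers the whole hairpin and does not tell its arms apart. Capitals mark the 2 mature arms.
Mir183 hairpin: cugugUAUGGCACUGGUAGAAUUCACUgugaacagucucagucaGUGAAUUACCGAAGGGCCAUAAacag
Mir96 hairpin: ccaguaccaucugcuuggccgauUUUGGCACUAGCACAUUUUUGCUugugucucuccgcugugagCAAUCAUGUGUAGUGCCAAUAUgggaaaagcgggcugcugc
Mir182 hairpin: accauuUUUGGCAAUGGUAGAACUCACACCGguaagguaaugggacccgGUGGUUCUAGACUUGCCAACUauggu

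The genes stand in the order Mir183, Mir96, Mir182 along the minus strand of chromosome 6 in assembly mm10. Mir183 (ENSMUSG00000065619.2) covers 30169668 to 30169737, Mir96 (ENSMUSG00000065586.1) 30169446 to 30169551, and Mir182 (ENSMUSG00000076361.1) 30165918 to 30165992. A gap of 116 nt separates Mir183 from Mir96, and 3453 nt separate Mir96 from Mir182, so the cluster spans 3820 nt. In GENCODE M21 the neighbouring genes Nrf1 and Ube2h do not reach the hairpins, and a full search for other genes over them was not made. RefSeq places all 3 inside the noncoding gene Mirc35hg, from 30158640 to 30174125, and the tables used here do not say whether they are exonic or intronic in it. Mir183 begins 4388 nt, Mir96 4574 nt and Mir182 8133 nt from its start. The noncoding gene Rncr4 lies on the opposite strand from 30172893 to 30175126, over the start of Mirc35hg and not over any hairpin. No hairpin shared a stretch of 20 nt with another transcript of GENCODE M21, whereas 86 of 397 detected loci shared one with another miRNA hairpin. Reads that mapped to several places were not counted at genes, so the 3 counts are not lowered by annotated copies of that kind.

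**Figure D1:**
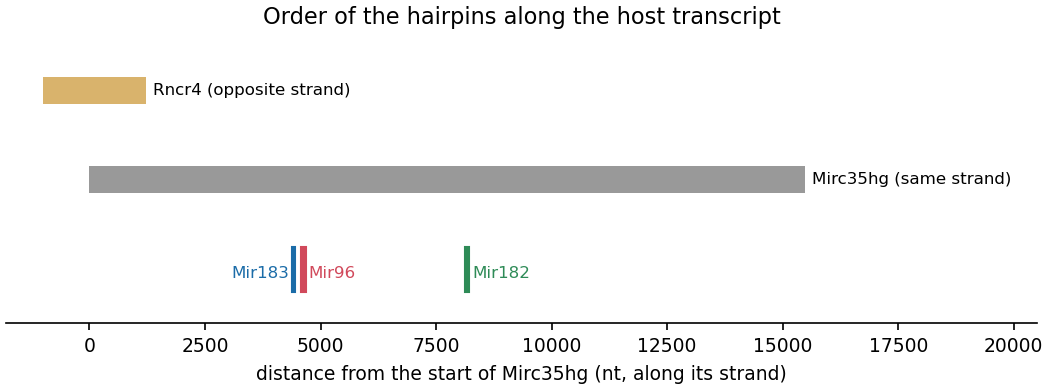
Position of the hairpins, of Mirc35hg and of Rncr4 as distance in nt from the start of Mirc35hg along its strand. Mir183 and Mir96 lie 116 nt apart and Mir182 3453 nt further on.

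The window around the start of Mirc35hg, 250 nt before to 50 nt after it (RefSeq, GRCm38.p6, chr6:30174076-30174375, minus strand), is shown as the start that the 3 hairpins share. Capitals mark the GC box GGGCGG and the E-box CACCTG, each searched on both strands.
Mirc35hg start: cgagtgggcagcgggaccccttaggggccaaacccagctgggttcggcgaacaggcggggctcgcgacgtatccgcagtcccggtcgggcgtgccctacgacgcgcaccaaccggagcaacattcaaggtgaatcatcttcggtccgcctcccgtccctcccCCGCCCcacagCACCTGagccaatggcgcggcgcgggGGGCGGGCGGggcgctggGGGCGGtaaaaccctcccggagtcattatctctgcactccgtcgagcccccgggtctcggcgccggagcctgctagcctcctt
This window had a G+C content of 70.3% and 35 CG dinucleotides, against medians of 52.7% and 7 over 32851 such windows in the table. GGGCGG matched 4 times, with an overlap between a pair of matches, and occurs in 35.7% of all windows. CACCTG matched 1 time and occurs in 20.2%. These matches describe letters only.

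All 3 members were read well above the minimum. Mir182, known from photoreceptors and hair cells, had 10610 sense reads in replicate 1 and 5339 in replicate 2, which is 1453 and 1346 CPM. Mir183, the member nearest the start of the transcript, had 7218 and 3877 reads, or 988 and 977 CPM. Mir96, whose seed is mutated in inherited deafness in mouse and human, had 2922 and 1597 reads, or 400.1 and 402.6 CPM. The order Mir182, Mir183, Mir96 was the same in both libraries, and no value of a member fell inside the range of another. The means were 1399 ± 75.6 CPM for Mir182, 983 ± 7.80 CPM for Mir183 and 401 ± 1.75 CPM for Mir96 (SD, n = 2). Exact 95% Clopper-Pearson intervals, which cover counting error only since reads copied by PCR are not independent, ran from 1425 to 1481 CPM for Mir182 in replicate 1 and from 1310 to 1383 CPM in replicate 2. Those of Mir183 (966 to 1011 and 947 to 1009 CPM) and of Mir96 (386 to 415 and 383 to 423 CPM) overlapped between the libraries, and those of Mir182 did not.

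**Figure D2:**
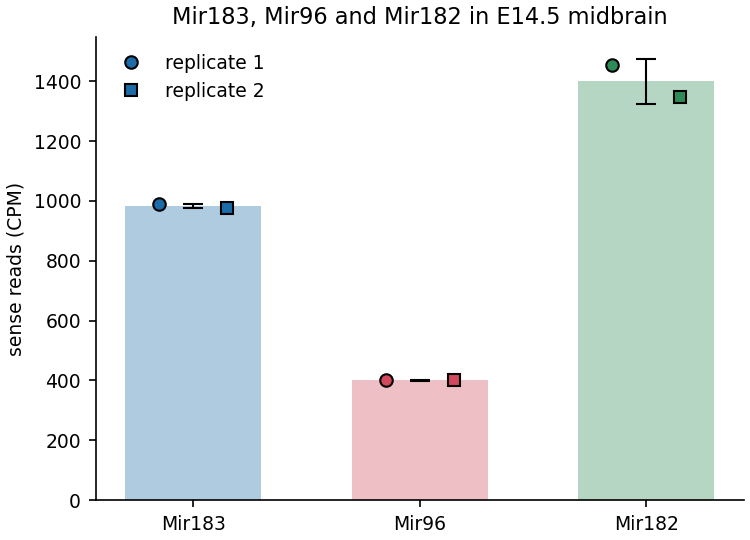
Sense reads in CPM for each member. Bars give the mean, error bars the SD over 2 replicates, circles replicate 1 and squares replicate 2; Mir182 was highest at 1399 CPM and Mir96 lowest at 401 CPM.

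Within the cluster Mir182 took 51.1% (replicate 1) and 49.4% (replicate 2) of the reads, Mir183 34.8% and 35.9%, and Mir96 14.1% and 14.8%. The read count of Mir182 was 1.42 ± 0.0656 times that of Mir183, with 1.47 in replicate 1 (exact 95% interval 1.43 to 1.51) and 1.38 in replicate 2 (1.32 to 1.44). Per nt of annotated hairpin this ratio was 1.33 ± 0.0613. The count of Mir183 was 2.45 ± 0.0301 times that of Mir96, with 2.47 (2.37 to 2.58) and 2.43 (2.29 to 2.57), and per nt 3.71 ± 0.0456 times. Mir182 stood 3.49 ± 0.204 times above Mir96, with 3.63 (3.49 to 3.78) and 3.34 (3.16 to 3.54), and per nt 4.93 ± 0.288 times. Each ratio differed from 1 by more than its spread over the replicates. With 2 replicates an exact two-sided permutation test cannot give a p below 0.5. The part of ligation and PCR preferences between the 3 sequences was not tested.

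The level did not follow position along the transcript: Mir96, 116 nt from Mir183, was the lowest of the 3, and Mir182, the farthest from the start, the highest. It also did not follow hairpin length, since Mir96 has the longest hairpin at 106 nt, against 70 nt for Mir183 and 75 nt for Mir182. The 5′ arms had a G+C content of 48.0% in Mir182, 40.9% in Mir183 and 39.1% in Mir96, which is the same order as the levels. These are orders of 3 genes with no test.

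Together the 3 genes were hit by 20750 sense reads (replicate 1) and 10813 sense reads (replicate 2), which is 0.284% (exact 95% interval 0.280 to 0.288) and 0.273% (0.267 to 0.278) of all sense reads. Its mean share was 0.278% ± 0.00817 (SD, n = 2). The replicates held 7302633 and 3966727 sense reads at miRNA loci in all. Of these loci 397 were detected, with at least 10 sense reads in each replicate, and all 3 members were among them. Mir99a, the most abundant locus, had 214304 ± 1144 CPM, far above any member.

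Among the 397 detected loci Mir182 ranked in place 79, Mir183 in place 91 and Mir96 in place 142. They lay above 318, 306 and 255 of the detected loci, whose median was 120.0 CPM. Ranks in the single libraries were 78 and 80 for Mir182, 86 and 95 for Mir183, and 141 and 141 for Mir96. Neighbours could not all be told apart. By less than the larger SD of member and neighbour, 6 loci differed from Mir182, 11 from Mir183 and 21 from Mir96. The SDs of Mir183 (7.80 CPM) and Mir96 (1.75 CPM) were narrower than their counting intervals, so their numbers may be too low.

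**Figure D3:**
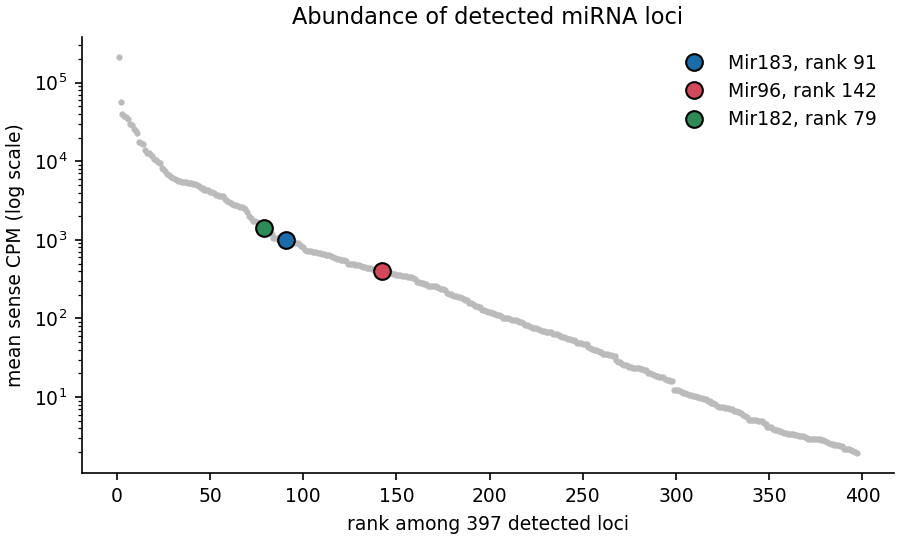
Mean sense CPM on a log scale against rank for the 397 detected loci (grey points), with the members in colour. Mir182, Mir183 and Mir96 stand in places 79, 91 and 142, above the median of 120.0 CPM.

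The loci most like each member were taken by the smallest distance in log2(CPM + 1) over the 2 libraries, a measure that with 2 libraries reflects level only. For Mir182 they were Mir188 (1411 ± 66.3 CPM, distance 0.15), Mir92-1 (1504 ± 113 CPM, 0.15) and Mir425 (1328 ± 191 CPM, 0.17). For Mir183 they were Mir674 (1018 ± 30.8 CPM, 0.09), Mir138-1 (1045 ± 4.97 CPM, 0.13) and Mir467c (927 ± 73.3 CPM, 0.16). For Mir96 they were Mirlet7c-1 (405 ± 13.2 CPM, 0.06), Mir328 (400.2 ± 23.3 CPM, 0.08) and the endocrine miRNA Mir375 (411 ± 16.9 CPM, 0.08). Mir92-1, Mir138-1, Mir467c and Mirlet7c-1 share a stretch of 20 nt with another hairpin, so their own levels are uncertain.

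The levels of the 3 members were closer to each other than those of any other cluster compared. Clusters were runs of at least 3 detected loci on 1 strand in which neighbours lay no more than 10 kb apart. Among 14 such clusters the Mir183-Mir96-Mir182 cluster had the smallest ratio of its highest to its lowest locus, 3.49. The next was the miR-302 group, known from pluripotent cells, at 7.74, from 438 ± 24.7 CPM at Mir302a to 56.6 ± 14.0 CPM at Mir302c, and its member Mir367 was under the minimum with 0 and 1 read. The epithelial cluster of Mir429, Mir200b and Mir200a had 10.1, the cluster of Mir188 and Mir362 14.0, and the growth-associated cluster of Mir93, Mir106b and Mir25 had 18.8. The median of the other 13 was 176 and the highest, in the Dlk1-Dio3 domain, was 8357. These values depend on the minimum count: with at least 100 reads in each replicate 12 clusters were left, the median of the other 11 was 25.9 and the highest 587, while the lowest of them stayed 7.74. The lowest other cluster came nearer under further settings, at 6.93 with a minimum of 3 reads and at 5.14 with gaps of at most 50 kb. This ratio grows with the number of loci, and among the 4 other clusters of 3 loci the median was 44.1 and the lowest 10.1, with a median of 25.9 over 3 such clusters at a minimum of 100 reads. Reads lost at loci with copies can widen or narrow it, and of the other clusters 4 had no locus with a copy, with none of them below 3.49. Per nt of annotated hairpin the ratio was 4.93 and still the smallest of the 14, ahead of 7.62. With gaps of at most 3 kb Mir182 fell outside the cluster, and the pair of Mir183 and Mir96, at 2.45, was no longer the most even among 46 clusters of at least 2 loci, of which 10 had a smaller ratio. This is an order among 14 clusters with no test.

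**Figure D4:**
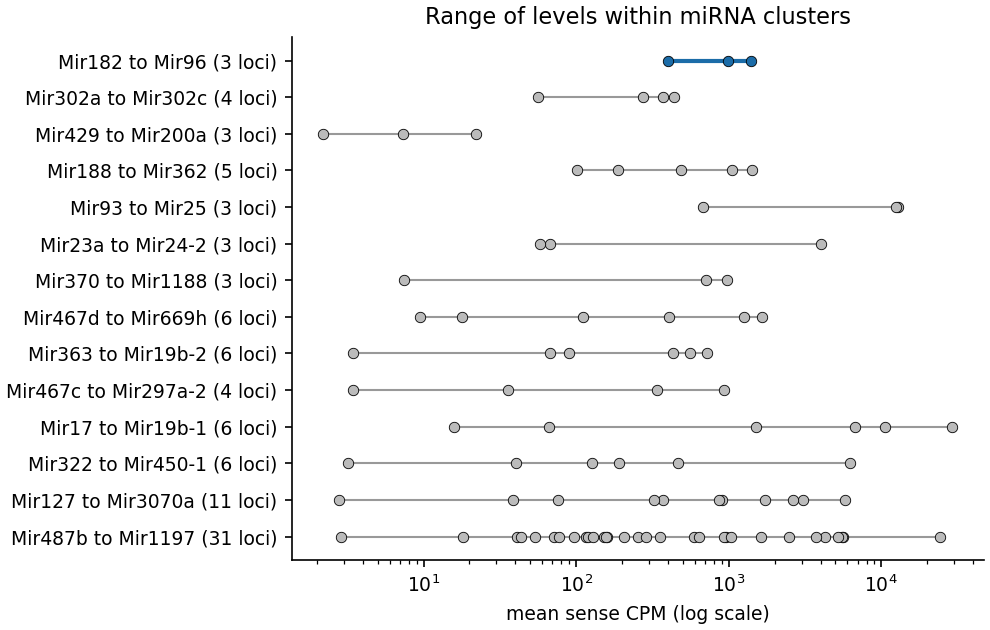
Mean sense CPM on a log scale of every locus (points) in the 14 clusters, each row named by its highest and lowest locus and ordered by their ratio. The Mir183-Mir96-Mir182 cluster, in blue, has the shortest span, 3.49-fold.

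The replicates differed little at the 3 members, though Mir182, at 0.21 in log2, was above the median of 0.19 for loci at 201 to 2799 CPM. After scaling with TMM, log2(replicate 1/replicate 2) was 0.21 for Mir182 (exact 95% interval 0.16 to 0.25), 0.11 for Mir183 (0.05 to 0.17) and 0.09 for Mir96 (-0.0024 to 0.17). An exact binomial test with Benjamini-Hochberg adjustment over all detected loci called Mir182 (adjusted p = 6.28e-17) and Mir183 (adjusted p = 0.000259) and did not call Mir96 (adjusted p = 0.0992). It called 53.9% of the 397 loci, so 2 calls among 3 members are near the background. The test covers no spread beyond counting error, so it speaks of these libraries alone. Absolute differences at all 3 members were below the median over detected loci, 0.23, and 92 of 117 loci at levels from 201 to 2799 CPM were called, with a median absolute difference of 0.19. On plain totals the difference was 0.016 for Mir183, with an adjusted binomial p of 0.663, and -0.0089 for Mir96, so that its sign turned, while that of Mir182 was 0.11. With a biological coefficient of variation fixed at 0.1 in edgeR's exactTest, which called 6.55% of the loci, no member passed, with adjusted p of 0.695 for Mir182, 0.856 for Mir183 and 0.913 for Mir96.

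**Figure D5:**
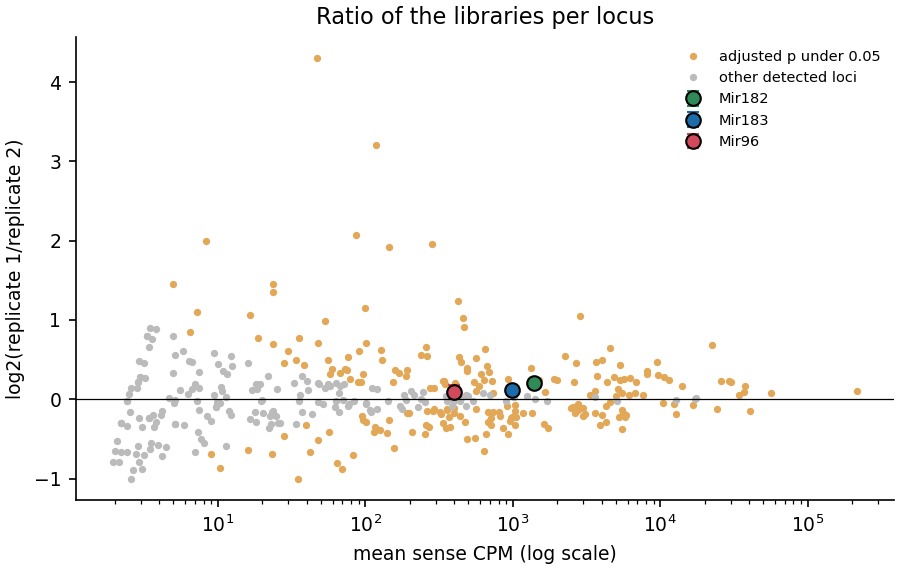
log2(replicate 1/replicate 2) after TMM scaling against mean sense CPM on a log scale for the 397 detected loci, with loci past the binomial test in orange. Error bars on the members are exact 95% intervals from counting; the 3 members lie between 0.09 and 0.21.

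The balance between members was also close in the 2 libraries. In log2, the ratio of Mir182 to Mir96 was higher by 0.12 in replicate 1 than in replicate 2, that of Mir182 to Mir183 by 0.09, and that of Mir183 to Mir96 by 0.03. For the test of these ratios, groups of 2 loci were taken as clusters too, which gave 44 clusters and 647 pairs of detected loci. Fisher's exact test, adjusted over all 647 pairs, called the first (adjusted p = 0.0360) and the second (adjusted p = 0.0231), and not the third (adjusted p = 0.744). It called 56.6% of all pairs, so these calls are again near the background. The median absolute difference over all pairs was 0.27. The Dlk1-Dio3 cluster alone supplied 465 of the pairs. These differences do not depend on the scaling of the libraries.

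Other miRNAs of sensory and epithelial tissues were counted for the same libraries, from lists made with earlier results known. Of 11 listed loci of retina, lens and pigment epithelium 8 had a count under the listed symbol, and 6 of these were detected. Mir204 of the pigment epithelium and choroid plexus led them at 695 ± 83.5 CPM. Mir7a-1, Mir7a-2 and Mir9-1 were not found under these symbols. Loci that GENCODE M21 names Mir7-1, at 638 CPM, and Mir7-2 were detected. Because the names differ, they were not matched to Mir7a-1 and Mir7a-2. Mir9-3, of a family active in neural progenitors, followed among the matched loci at 536 ± 31.0 CPM. Next among them came Mir211, the relative of Mir204 in pigment cells, at 17.9 ± 2.20 CPM, and Mir124a-3 was lowest at 1.92 ± 0.577 CPM. The Mir9 and Mir124a loci, 5 of the 8 counted, are also on the brain list, and all 5 share sequence with another hairpin, so that reads mapping to several places are missing from their levels. Of 9 listed loci of olfactory, taste and pituitary epithelium 8 had a count under the listed symbol and all 8 were detected. Mir7a-2 was again not matched. Mir203 had 731 ± 5.66 CPM, Mir375 411 ± 16.9 CPM and Mir200a, the lowest, 2.21 ± 0.799 CPM. By sense CPM Mir182 and Mir183 stood above every counted locus of both lists in both libraries, with that limit for the 5 loci. This depends on which loci were listed. Mir7b, on neither list, had 1354 CPM, with 8994 sense reads in replicate 1 and 5859 in replicate 2. It stood above Mir183 in both libraries and above Mir182 in replicate 2. Mir96, at 401 CPM, stood below Mir203, Mir204, Mir9-3 and Mir375 of the matched loci on mean CPM, and also below Mir7-1. From Mir375 it differed by less than the SD of Mir375. The brain list of 12 loci had 9 of 11 counted loci detected. Its counted loci ran from Mir137 at 12716 ± 1726 CPM down to Mir124a-3 at 1.92 ± 0.577 CPM, and 9 of the 11 share sequence with another hairpin. The blood and vessel list had 5 of 5 detected, led by Mir126a at 22524 ± 6382 CPM and Mir143 at 4559 ± 1222 CPM, both above every member of the cluster. Its Mir451a, a red cell miRNA, had 447 CPM in replicate 1 and 123 CPM in replicate 2. Whether reads of the cluster came from midbrain cells or from attached tissue was not tested.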

How the data were processed

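MicroRNA-seq libraries of 2 midbrain replicates were used as 1 group. The authors deposited raw read counts per miRNA gene for both strands, the annotated strand (sense) and the opposite strand, on assembly mm10 with annotation M4 per the deposited text; for the aligner and counter the sources used here give no name. Classes outside genes were left out: of 17853282 reads in replicate 1 and 9565117 in replicate 2, unmapped reads were 19.0% and 18.5%, reads mapping to several places 36.2% and 36.9%, and reads in no miRNA gene 3.10% and 2.17%. Identifiers were matched to GENCODE M21 (1894 of 1973). The 3 members matched RefSeq sequences by symbol.

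CPM used the sum of sense counts, and 1 read was 0.137 CPM in replicate 1 and 0.252 CPM in replicate 2. Total counts limit precision as the intervals show. Tools were Python 3.11.15, scipy 1.17.1 and edgeR 4.0.16 (TMM, exactTest with dispersion 0.01), with DESeq2 1.42.0 for alternative size factors. Calls needed an adjusted p under 0.05. The dispersion for exactTest was chosen, since 1 library on each side gives no estimate of it. Whether a locus passed exactTest therefore depends on that choice. The binomial test and the exact intervals of ratios were tested on simulated data with counting error only. Fisher's exact test and edgeR's exactTest were not. With 1 group no test between conditions was possible. The members and lists were chosen with earlier results of these data known. List loci were matched by symbol. Named loci were the members, the 3 nearest to each, the most abundant locus, and from each list at most its 3 highest matched loci and its lowest. Loci of the same seed, the ends of clusters, Mir7-1, Mir7-2 and Mir7b were named after their values were seen.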

Additional observations from a re-analysis of the deposited data

Results flagged for a closer look

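Reads on the opposite strand, which the sense counts leave out and only the counts of both strands include, were found at a pair of the members above the 3 counts that a count of 0 allows. Mir182 had 8 in replicate 1 and 6 in replicate 2, and Mir183 had 6 and 4. Mir96, between them on the chromosome, had 0 in both, which allows up to 0.103% and 0.188% of its reads. The opposite strand made up 0.0753% and 0.112% of the reads at Mir182 and 0.0831% and 0.103% at Mir183. Over the 380 detected loci with no miRNA gene on their other strand it made up 0.00234% in replicate 1 and 0.00266% in replicate 2, and only 21 and 16 of these loci had any such read. The 3 members held 14 of the 160 opposite-strand reads of those loci in replicate 1 and 10 of the 100 in replicate 2. Rncr4, an annotated gene on that strand, does not overlap the hairpins. The origin of these reads was not tested.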

How the results depend on the processing

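The order Mir182, Mir183, Mir96 held in each replicate alone and with both strands counted. Each total and scaling tried divides all 3 members of a library by the same number, so it could not change this order. Levels of Mir183, Mir96 and Mir182 were 405, 165 and 576 CPM with all reads of the table as the total, and 1251, 511 and 1781 CPM without Mir99a in it; the cluster share was then 0.115% and 0.354%. With both strands counted Mir183 had 964 CPM and Mir96 393 CPM. Per nt of annotated hairpin, Mir182/Mir183 was 1.33, Mir183/Mir96 3.71 and Mir182/Mir96 4.93, which is also the ratio of highest to lowest locus. With gaps of 3 kb that ratio was 2.45, without Mir182. Mir96 ranked 142, and 141 in either replicate alone. Between the replicates, plain totals moved the median log2 ratio of detected loci from 0.00 to -0.09, gave Mir183 0.016, turned Mir96 to -0.0089, and changed the split of calls from 119 higher and 95 lower in replicate 1 to 90 higher and 127 lower. With edgeR's exactTest Mir183 (log2 0.11) and Mir182 (log2 0.21) lost their calls and 26 loci were called in place of 214, since it allows for a spread between libraries. Of 93 values under alternatives, 71 stayed within the replicate SD, on their side of the threshold or, for numbers and percentages of calls, within a set fold of the main value. Part of this was fixed in advance. With 2 replicates, leaving 1 out cannot move a mean by more than the SD. Several cluster settings also keep the same 3 members and so the same ratio. Restricting pairs to neighbours, an alternative chosen after seeing the data, gave 53.6% called. No paired analysis was possible because there was only 1 group. Depth limits Mir96 most: its interval in replicate 2 spans 383 to 423 CPM.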
